A study of Mus musculus with 18 samples.

Results

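Genes of the tumor necrosis factor (TNF) and NF-κB pathway were followed in B16F10 tumors injected with a cyclic dinucleotide (CDN) agonist of the innate immune adaptor STING. The 10 genes described, chosen by name out of 50600 gene rows, were the cytokine gene Tnf, the NF-κB subunit genes Nfkb1, Nfkb2, Rel and Relb, the inhibitor and modulator genes Tnfaip3, Nfkbia and Nfkbiz, the ubiquitin ligase gene Birc3 and the adaptor kinase gene Ripk2. All 10 passed the filter on low counts. B16F10 is a mouse melanoma cell line, grown here under the skin of the right flank of C57BL/6 mice, which the study's methods give as female and 5 to 6 weeks old. Whole tumors were sequenced 24 h after the last intratumoral (IT) injection, and 2-dose tumors received the second injection 3 days after the first. After 1 dose there were 2 tumors each for PBS, unloaded extracellular vesicles (EVs), exoCDN2 (0.1 µg of CDN2 loaded into EVs), CDN2 at 20 µg and CDN2 at 100 µg. After 2 doses there were 2 tumors each for PBS, exoCDN2 (0.1 µg), CDN2 (20 µg) and CDN2 of an amount that the labels leave out. CDN2 is named CL656 in the labels, and the EVs came from a human embryonic kidney line made to overexpress the surface protein PTGFRN. Each tumor was a mixture of melanoma, stromal and immune cells, so fewer cells of a type and less RNA per cell cannot be told apart.

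NF-κB is a family of dimeric transcription factors held in the cytoplasm by inhibitor proteins. TNF binding to its receptors, sensing of bacterial wall fragments through RIPK2, or activation of STING can start kinases that remove these inhibitors, and the freed dimers then enter the nucleus. Several of the first genes they switch on encode inhibitors of the same pathway, among them IκBα (Nfkbia) and A20 (Tnfaip3), which gives the response its known negative feedback.

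The tumors held between 21608895 and 65983630 summed counts. Levels below are normalized counts (counts divided by a size factor for depth), and a gene was called changed where its edgeR adjusted p lay under 0.05 with a change of more than 2-fold. The tumor labelled CDN2 20 µg, 2 doses, number 1 was the shallowest and stood apart from its partner: 27.4% of genes differed more than 2-fold between this pair, against 4.02% to 12.2% in the other 8 groups, and 6 of the 10 genes did. Values without it are given beside the 2-dose results of CDN2. Melanoma markers (5 genes, summed) lay between 5540 and 15500 CPM (counts scaled to a common library total) in all 18 tumors and none was at 0.

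Compared per kilobase of exon, Nfkbia (7.85 to 11.2 CPM per kb) and Nfkb2 (6.84 to 8.81) stood highest of the 10 genes in the PBS tumors, with Nfkb2 above Nfkbia in PBS 2-dose tumor 2 and below it in the others. Tnf lay at the bottom after 2 PBS doses, at 0.160 and 0.237 CPM per kb, which rest on 12 and 19 counts. The order changed under STING agonist: after 1 dose of exoCDN2, Ripk2 reached 30.3 and 37.4 CPM per kb, second to Nfkbia at 83.2 and 83.1.

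**Figure D1:**
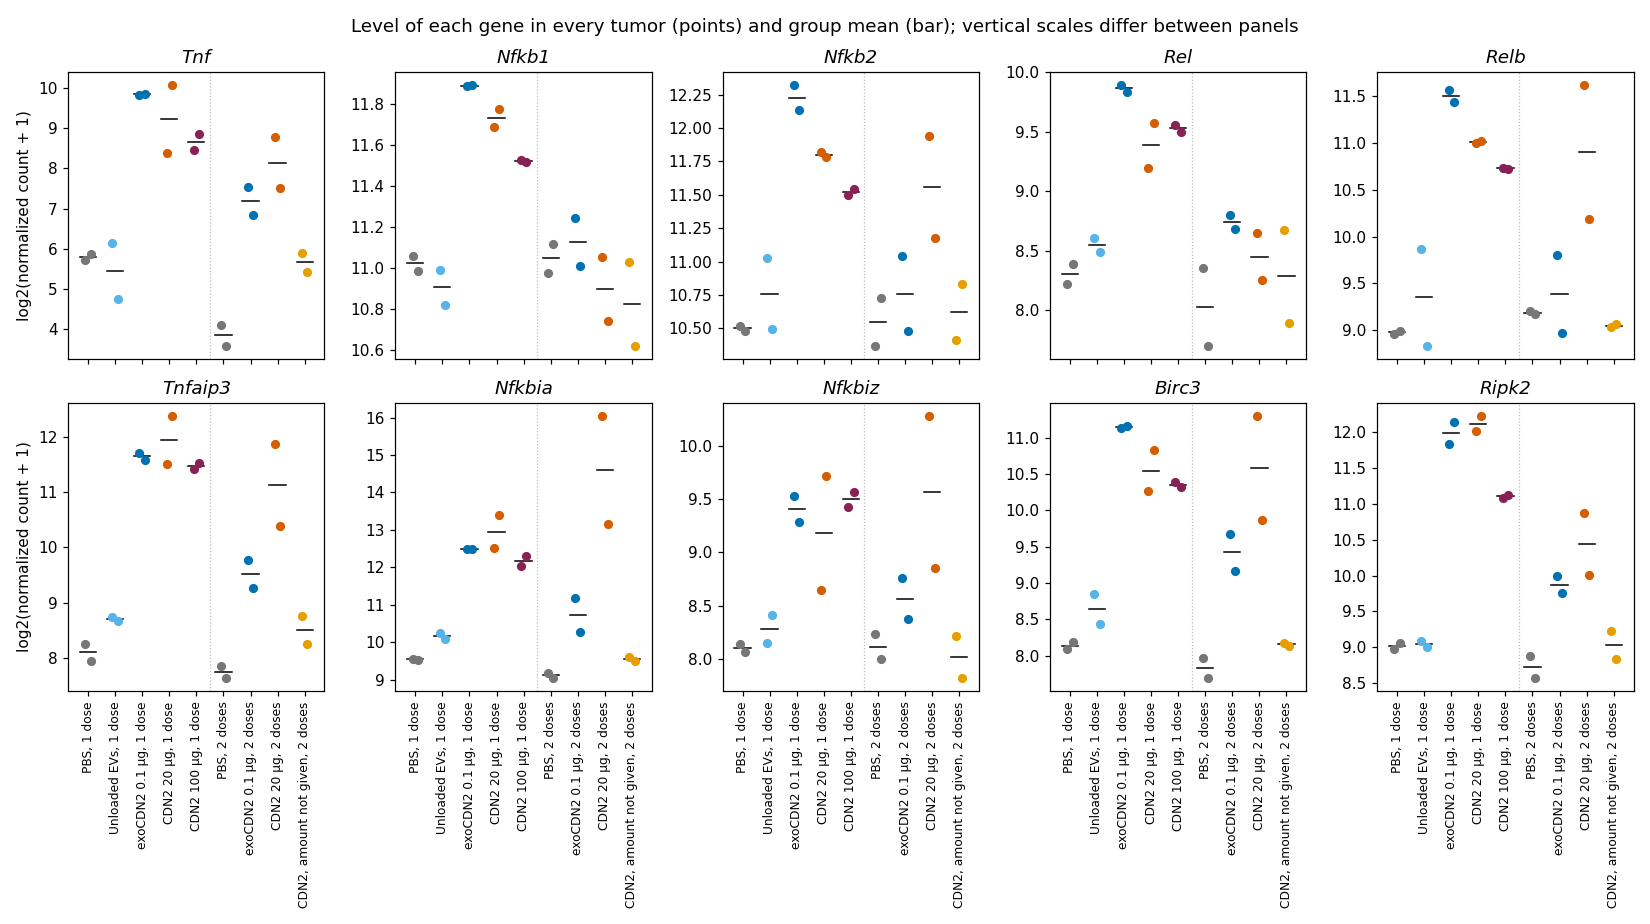
Level of each of the 10 genes in every tumor as log2(normalized count + 1), in 9 groups of 2 tumors, with a bar at each group mean and a dotted line between 1-dose and 2-dose groups. The 1-dose exoCDN2 and CDN2 points sit above PBS for all 10 genes, which is not a count of calls. Nfkb1 stayed under the ratio of 2, Nfkbiz was not called by edgeR, and at 100 µg neither Nfkb2 nor Nfkbia was. The share of all genes whose agonist points all sit above PBS was not computed. The 2 tumors given 2 doses of CDN2 (20 µg) lie far apart for Nfkbia, at 66890 and 9061 normalized counts.

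Tnf, the ligand of the pathway, was measured at 52.2 and 57.9 normalized counts in the PBS tumors after 1 dose. Unloaded EVs gave 70.3 and 26.2, on both sides of PBS. ExoCDN2 gave 907 and 915, CDN2 at 20 µg gave 334 and 1072, and CDN2 at 100 µg gave 352 and 462. All 6 agonist tumors stood above all 4 PBS and EV tumors, and the CDN2 20 µg pair spanned the exoCDN2 and 100 µg pairs. Tnf was 16.1-fold higher with exoCDN2 than with PBS (log2 4.01 ± 0.61 SE, edgeR adjusted p = 0.00302), 12.6-fold higher with CDN2 at 20 µg (adjusted p = 0.00495) and 7.31-fold higher with CDN2 at 100 µg (adjusted p = 0.0221).

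The subunit genes had smaller ratios to PBS than Tnf. Rel and Relb encode c-Rel and RelB, which carry an activation domain, whereas Nfkb1 and Nfkb2 encode the precursors p105 and p100 that are cut to p50 and p52 and act as inhibitors while uncut. Relb measured 499 and 508 normalized counts with PBS, 936 and 455 with unloaded EVs, 3026 and 2776 with exoCDN2, 2045 and 2075 with CDN2 at 20 µg and 1700 and 1690 with CDN2 at 100 µg. Its agonist groups did not overlap with one another or with PBS. The change from PBS was 5.62-fold with exoCDN2 (adjusted p = 0.00602), 4.06-fold with 20 µg (adjusted p = 0.0165) and 3.34-fold with 100 µg (adjusted p = 0.0451).

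Nfkb2 measured 1463 and 1431 with PBS, 5121 and 4489 with exoCDN2, 3606 and 3531 with CDN2 at 20 µg and 2892 and 2987 with CDN2 at 100 µg. These 4 pairs did not overlap, and the change from PBS was 3.24-fold with exoCDN2 (adjusted p = 0.00296) and 2.45-fold with 20 µg (adjusted p = 0.0138). At 100 µg its 2.01-fold difference missed the threshold (adjusted p = 0.0571). Exons of Nfkb2 overlap those of Psd on the opposite strand, and the sources used here do not say whether counting used strand, so reads of the pair may not be separable.

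Rel measured 298 and 335 with PBS, 951 and 915 with exoCDN2, 586 and 761 with CDN2 at 20 µg and 753 and 724 with CDN2 at 100 µg. It was 2.88-fold higher with exoCDN2 (adjusted p = 0.0019), 2.11-fold higher with 20 µg (adjusted p = 0.0148) and 2.31-fold higher with 100 µg (adjusted p = 0.011). Nfkb1 measured 2134 and 2031 with PBS, 3790 and 3807 with exoCDN2, 3298 and 3509 with CDN2 at 20 µg and 2950 and 2933 with CDN2 at 100 µg. Its differences from PBS stayed under the ratio of 2 that a call needed, at 1.78-fold with exoCDN2 (adjusted p = 0.0042), 1.62-fold with 20 µg (adjusted p = 0.0116) and 1.4-fold with 100 µg (adjusted p = 0.0814).

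Among the feedback genes, Tnfaip3 and Nfkbia showed the widest range. Tnfaip3 encodes A20, an enzyme that edits ubiquitin chains on signalling proteins below the TNF receptor. It measured 305 and 248 with PBS, 430 and 407 with unloaded EVs, 3341 and 3072 with exoCDN2, 2913 and 5262 with CDN2 at 20 µg and 2713 and 2952 with CDN2 at 100 µg. The EV pair lay above the PBS pair and far below every agonist tumor. Tnfaip3 was 11.3-fold higher than with PBS for exoCDN2 (adjusted p = 0.000547), 14.7-fold higher for 20 µg (adjusted p = 0.000277) and 10.2-fold higher for 100 µg (adjusted p = 0.00105).

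Nfkbia encodes IκBα, the inhibitor that is degraded on activation and made anew. It measured 754 and 732 with PBS, 1202 and 1084 with unloaded EVs, 5720 and 5757 with exoCDN2, 5843 and 10730 with CDN2 at 20 µg and 4224 and 5010 with CDN2 at 100 µg. The exoCDN2 pair sat between both CDN2 pairs. The change from PBS was 7.53-fold with exoCDN2 (log2 2.91 ± 0.66 SE, adjusted p = 0.0322) and 11.1-fold with 20 µg (adjusted p = 0.0126). At 100 µg the 6.15-fold difference had an adjusted p of 0.0547.

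Nfkbiz encodes IκBζ, a nuclear member of the inhibitor family that helps to switch on a subset of NF-κB targets. It measured 281 and 267 with PBS, 737 and 623 with exoCDN2, 401 and 840 with CDN2 at 20 µg and 688 and 757 with CDN2 at 100 µg. The agonist values all lay above PBS and overlapped with one another. No difference from PBS passed the edgeR test: 2.42-fold with exoCDN2 (adjusted p = 0.119), 2.24-fold with 20 µg (adjusted p = 0.155) and 2.61-fold with 100 µg (adjusted p = 0.096). DESeq2 called Nfkbiz with exoCDN2 (adjusted p = 0.0283) and with 100 µg (adjusted p = 0.018).

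Birc3 encodes cIAP2, a ubiquitin ligase recruited to the TNF receptor. It measured 271 and 290 with PBS, 458 and 345 with unloaded EVs, 2249 and 2291 with exoCDN2, 1230 and 1821 with CDN2 at 20 µg and 1343 and 1273 with CDN2 at 100 µg. ExoCDN2 tumors were the highest, and the tumors given 100 µg fell within the 20 µg pair. Birc3 was 7.89-fold higher than with PBS for exoCDN2 (adjusted p = 0.000867), 5.39-fold higher for 20 µg (adjusted p = 0.00295) and 4.62-fold higher for 100 µg (adjusted p = 0.00733).

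Ripk2 encodes the kinase that carries signals from the NOD receptors to NF-κB. It measured 503 and 534 with PBS, 545 and 510 with unloaded EVs, 3644 and 4533 with exoCDN2, 4157 and 4779 with CDN2 at 20 µg and 2177 and 2235 with CDN2 at 100 µg. The PBS and EV tumors were level, and the 100 µg pair stood below both other agonist pairs. It had the smallest p of the 10 genes in each of the 4 tests of a 1-dose agonist group against PBS or unloaded EVs (adjusted p = 4.02e-05 for exoCDN2 and 0.000516 for 100 µg against PBS).

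In all, 8 of the 10 genes were called higher with exoCDN2 than with PBS after 1 dose (2.62% of all genes tested were called), and none lower. The same count with CDN2 at 20 µg was 8 of 10 (3.14% of all genes), and with CDN2 at 100 µg it was 6 of 10 (2.44% of all genes). DESeq2 called 9 of 10 with exoCDN2, 8 with 20 µg and 9 with 100 µg, where it added Nfkb2 (adjusted p = 0.00715), Nfkbia (adjusted p = 0.00737) and Nfkbiz. These comparisons share the PBS tumors. Against unloaded EVs, 7 of 10 were called higher with exoCDN2 (2.95% of all genes), and Nfkbia, 4.93-fold higher, missed the threshold (adjusted p = 0.0818) but was called by DESeq2 (adjusted p = 0.0223). Unloaded EVs against PBS gave no called gene of the 10 (0% of all genes by edgeR, with 540 of all genes at an unadjusted p under 0.05). None of the 10 had an unadjusted p under 0.05 in that test, DESeq2 called none, and the log2 differences ran from -0.19 for Tnf to 0.61 for Nfkbia (95% interval -0.74 to 1.97).

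**Figure D2:**
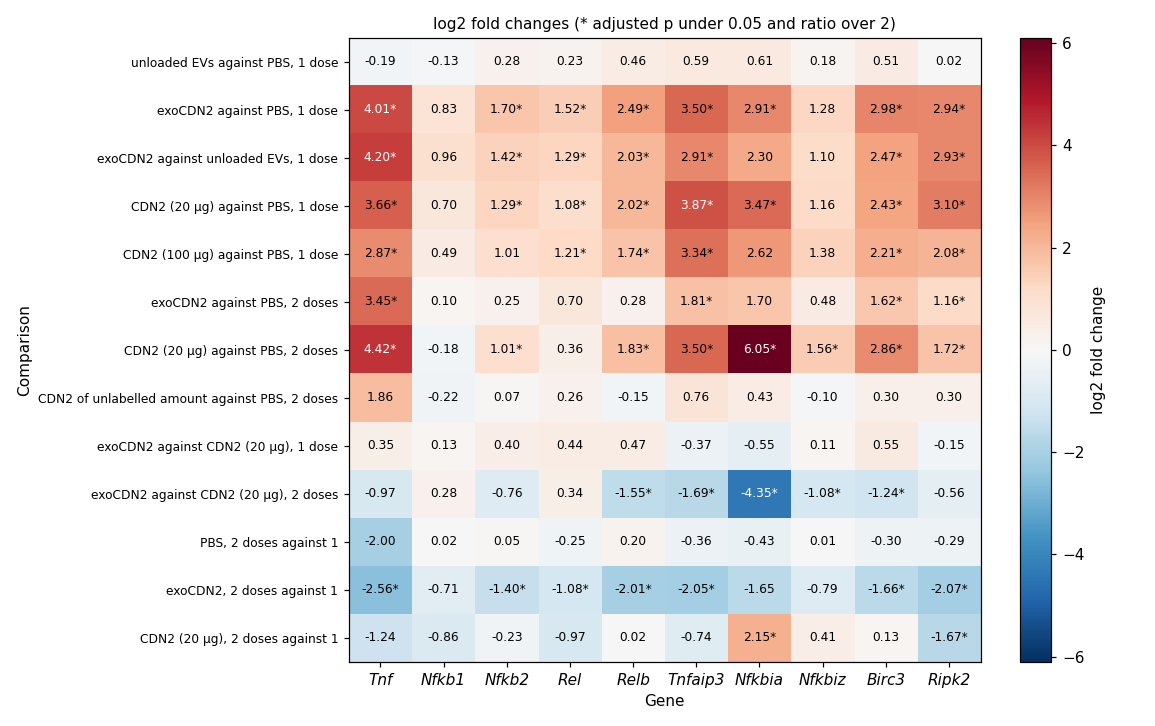
log2 fold change of each gene (columns) in 13 comparisons (rows), with red for higher, blue for lower and an asterisk where the edgeR adjusted p was under 0.05 and the ratio over 2. The row of unloaded EVs has no asterisk, the rows of exoCDN2 and CDN2 (20 µg) after 1 dose have 8 each, and the row of exoCDN2 after 2 doses has 4.

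With 2 tumors a group, many of these calls needed every tumor. Without the PBS 1-dose tumor 1, 2 of the 8 calls for CDN2 at 20 µg were kept, and the 6 lost had log2 differences of 1.00 to 3.58 with adjusted p of 0.0565 to 0.177. Without PBS tumor 2, 3 of 8 were kept (lost ones at 1.17 to 3.74, adjusted p 0.0757 to 0.157), and without CDN2 20 µg tumor 2, 4 of 8 were kept (lost ones at 0.89 to 2.98, adjusted p 0.0862 to 0.162). For exoCDN2 against PBS, 3 of 8 were kept without PBS tumor 1 (lost ones at 1.44 to 3.94, adjusted p 0.0503 to 0.25) and 4 of 8 without PBS tumor 2 (1.68 to 4.09, adjusted p 0.0583 to 0.268), while leaving out either exoCDN2 tumor lost Nfkbia alone (2.91 or 2.92, adjusted p 0.12 or 0.111). For CDN2 at 100 µg, 2 of 6 were kept without either PBS tumor (lost ones at 1.12 to 2.95, adjusted p 0.102 to 0.304) and 3 of 6 without either treated tumor (1.18 to 3.05, adjusted p 0.0654 to 0.192). For exoCDN2 against unloaded EVs, Nfkb2, Rel and Relb were lost without EV tumor 2 (1.19 to 1.61, adjusted p 0.0721 to 0.181), Nfkb2 and Relb without exoCDN2 tumor 1 (1.32 and 1.97, adjusted p 0.0644 to 0.0887), and Relb without exoCDN2 tumor 2 (2.10, adjusted p = 0.068). Some calls that were kept moved by over 1.5 times. Tnf with CDN2 at 20 µg was 19.4-fold above PBS without CDN2 tumor 1 and 6.05-fold without CDN2 tumor 2. Against unloaded EVs without EV tumor 1, exoCDN2 had Tnf 33.9-fold and Relb 6.25-fold higher. Tnfaip3 and Ripk2 kept their calls in each of these 4 comparisons whichever tumor was left out.

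ExoCDN2 was set directly against CDN2 at 20 µg after 1 dose, at amounts of 0.1 and 20 µg. None of the 10 genes was called by edgeR or by DESeq2 and none had an unadjusted p under 0.05 (0.608% of all genes were called). The log2 differences ran from -0.55 for Nfkbia (95% interval -1.89 to 0.78) to 0.55 for Birc3 (-0.21 to 1.31). Nfkb1 differed by 0.13 (-0.16 to 0.42), Rel by 0.44 (-0.02 to 0.91), Ripk2 by -0.15 (-0.64 to 0.33) and Tnf by 0.35 (-0.80 to 1.51). All 10 intervals held 0, and those of Tnf, Relb, Tnfaip3, Nfkbia and Birc3 were wide enough to hold a 2-fold difference.

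CDN2 at 100 µg against 20 µg likewise gave no called gene of the 10 by edgeR (0.455% of all genes). Ripk2 alone had an unadjusted p under 0.05: it was lower at 100 µg by 1.02 on the log2 scale, a ratio of 0.493 (95% interval -1.51 to -0.53, adjusted p = 0.0639), and DESeq2 called it (adjusted p = 0.00341). Tnf differed by -0.79 (-1.95 to 0.38) and Nfkbia by -0.84 (-2.19 to 0.50).

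Sequence next to the start sites of these genes is shown because NF-κB is known to bind a short κB motif. RefSeq windows of 250 bases before a start (GRCm38.p6) were matched for 6 of the 10 genes by symbol, with 9 starts, for Tnf, Nfkb2, Rel, Tnfaip3, Nfkbia and Birc3. The κB consensus was searched on both strands, and 6 of the 9 windows held a match, against 7.25% of 32851 windows of all genes. The stretches below run from 130 to 2 bases before the start, 5′ to 3′ on the gene's strand, for genes with no annotated exon there, with κB matches in capitals and overlapping matches run together.
Nfkbia (chr12:55492649-55492777, minus strand): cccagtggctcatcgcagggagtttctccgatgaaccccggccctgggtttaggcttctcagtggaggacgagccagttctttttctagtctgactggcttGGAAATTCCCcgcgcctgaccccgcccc
Tnfaip3 (chr10:19015412-19015540, minus strand): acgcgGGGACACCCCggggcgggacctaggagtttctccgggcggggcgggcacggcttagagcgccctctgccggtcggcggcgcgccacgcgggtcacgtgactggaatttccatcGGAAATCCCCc
Rel (chr11:23770971-23771099, minus strand): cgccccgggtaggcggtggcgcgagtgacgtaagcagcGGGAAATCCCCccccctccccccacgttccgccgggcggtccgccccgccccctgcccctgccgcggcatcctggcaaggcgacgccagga
Tnf (chr17:35202009-35202137, minus strand): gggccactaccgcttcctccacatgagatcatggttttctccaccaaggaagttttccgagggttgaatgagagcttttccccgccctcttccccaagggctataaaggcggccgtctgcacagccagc

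The Nfkbia match lay 29 to 20 bases before the start. Tnfaip3 held 1 match at 125 to 116 and 1 at 12 to 3 bases before its first start. Rel held 2 that overlap between bases 92 and 82. All 3 Nfkb2 windows held a match, the first with GGGAATTCCC at 39 to 30 bases and GGGGCTTTCC at 11 to 2 bases before the start. The windows of Tnf and Birc3 and the second Tnfaip3 start held none, which says only that these letters are absent from those 250 bases. Tnf, with no match there, had the largest ratio to PBS of the 10 genes with exoCDN2, and no binding was measured.

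The wider pathway was described with 4 further lists, each by its count of called genes and its median beside the median of all genes, which lay within 0.04 of 0 on the log2 scale in every comparison. The shares of all genes called in either direction, 2.62% for exoCDN2, 3.14% for CDN2 at 20 µg and 2.44% for 100 µg, stand as the background of each list. Of 31 tested NF-κB inducible genes (cytokines, chemokines, adhesion and survival genes), 16 were called higher with exoCDN2 after 1 dose (median log2 2.76), 13 with CDN2 at 20 µg (2.40) and 12 with 100 µg (1.81), and none lower. The smallest p-values belonged to the chemokine genes Ccl5 (20.2-fold with exoCDN2, adjusted p = 5.82e-05) and Cxcl10 (34.5-fold, adjusted p = 4.9e-05) and the transcription factor gene Irf1 (6.78-fold, adjusted p = 0.000345), all of which also respond to interferon. Of 16 other inhibitors, 4 were called higher with exoCDN2 (median 0.39), 5 with 20 µg (0.53) and 4 with 100 µg (0.16). They included Nfkbie, which encodes IκBε (9.45-fold with exoCDN2, adjusted p = 0.000149), and Bcl3, an atypical IκB (8.69-fold, adjusted p = 0.000998). Of 26 receptor and proximal signalling genes, 4 were called higher with exoCDN2 (median 0.36), 3 with 20 µg (0.33) and none with 100 µg (0.22). Ripk1, the kinase at the TNF receptor, was 2.16-fold higher with exoCDN2 (adjusted p = 0.000547), with Birc2 at 2.48-fold (adjusted p = 0.00302). Of the 8 genes of the IKK and NIK kinases and remaining subunits, Rela alone was called, with CDN2 at 20 µg (2.24-fold, adjusted p = 0.00867).

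After the second dose, CDN2 at 20 µg had 8 of the 10 genes called above PBS and exoCDN2 had 4, and the CDN2 pair was widely spread. The shares of all genes called were 30.6% for CDN2 and 11.3% for exoCDN2, so 8 and 4 of 10 are read against a larger background than after 1 dose.

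Tnf measured 16.3 and 11.02 normalized counts with 2 PBS doses. It measured 186 and 113 with exoCDN2 and 437 and 180 with CDN2 at 20 µg. Both pairs stood above PBS and overlapped with each other. Tnf was 10.9-fold above PBS with exoCDN2 (adjusted p = 0.00394) and 21.4-fold above with CDN2 (adjusted p = 0.000374), on a PBS level of 19 and 12 counts. Without CDN2 tumor 1 it was 12.9-fold above PBS with CDN2.

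Nfkbia measured 575 and 530 with 2 PBS doses and 2306 and 1232 with exoCDN2. With CDN2 it measured 66890 and 9061, which differ 7.38-fold. The change from PBS with CDN2 was 66.2-fold (log2 6.05 ± 0.76 SE, adjusted p = 0.000123), 16.2-fold without CDN2 tumor 1 and 112-fold without CDN2 tumor 2, called each time. With exoCDN2 the 3.25-fold difference did not pass (adjusted p = 0.0881).

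Tnfaip3 measured 232 and 200 with PBS, 875 and 619 with exoCDN2 and 3724 and 1330 with CDN2. The 3 groups did not overlap, and it was 3.5-fold above PBS with exoCDN2 (adjusted p = 0.00792) and 11.3-fold with CDN2 (adjusted p = 9.24e-05), or 6.08-fold without CDN2 tumor 1. Birc3 had the same order: 250 and 207 with PBS, 815 and 575 with exoCDN2 and 2509 and 932 with CDN2. It was 3.08-fold above PBS with exoCDN2 (adjusted p = 0.00904) and 7.26-fold with CDN2 (adjusted p = 0.000156), or 4.04-fold without CDN2 tumor 1. Ripk2 measured 470 and 380 with PBS, 1018 and 861 with exoCDN2 and 1869 and 1024 with CDN2, and was 2.24-fold above PBS with exoCDN2 (adjusted p = 0.00452) and 3.3-fold with CDN2 (adjusted p = 0.000175), or 2.38-fold without CDN2 tumor 1.

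No subunit gene was called with exoCDN2 after 2 doses. Relb measured 589 and 576 with PBS, 896 and 502 with exoCDN2 and 3141 and 1165 with CDN2. Nfkb2 measured 1319 and 1693 with PBS, 2102 and 1424 with exoCDN2 and 3933 and 2316 with CDN2. Of these, Relb (3.57-fold, adjusted p = 0.00361) and Nfkb2 (2.01-fold, adjusted p = 0.00661) were called with CDN2 and neither with exoCDN2 (log2 0.28 and 0.25). Rel, at 326 and 207 with PBS, 444 and 411 with exoCDN2 and 400 and 305 with CDN2, was 1.62-fold above PBS with exoCDN2 (adjusted p = 0.0432), under the ratio of 2. Nfkb1 differed from PBS by 0.10 with exoCDN2 and by -0.18 with CDN2 on the log2 scale. Nfkbiz measured 300 and 254 with PBS, 431 and 331 with exoCDN2 and 1237 and 462 with CDN2, and was called with CDN2 (2.95-fold, adjusted p = 0.00731).

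Without CDN2 tumor 1 of the 2-dose group, Nfkb2, Relb and Nfkbiz lost their calls against PBS (log2 0.60, 0.98 and 0.72), while Tnf, Tnfaip3, Nfkbia, Birc3 and Ripk2 kept theirs whichever tumor was left out. Nfkb2 was also lost without PBS tumor 1 (0.81, adjusted p = 0.0617) and Nfkbiz without PBS tumor 2 (1.42, adjusted p = 0.0523). Under a replicate block Nfkb2, at 0.97, fell under the ratio of 2. For exoCDN2, all 4 calls were lost without PBS 2-dose tumor 2 (log2 1.02 to 3.20, adjusted p 0.0527 to 0.0869), and Tnfaip3 and Birc3 were lost without exoCDN2 tumor 1 (1.53 and 1.34, adjusted p 0.0771 to 0.0935).

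Set against each other after 2 doses, 5 of the 10 genes were lower with exoCDN2 than with CDN2 at 20 µg (19.4% of all genes were called). They were Nfkbia (log2 -4.35 ± 0.70 SE, adjusted p = 0.002), Tnfaip3 (-1.69, adjusted p = 0.00741), Relb (-1.55, adjusted p = 0.014), Birc3 (-1.24, adjusted p = 0.0195) and Nfkbiz (-1.08, adjusted p = 0.0484). Without CDN2 tumor 1 only Nfkbia kept its call, at -2.34 (-5.12 without CDN2 tumor 2), and the other 4 lay at -0.81 to -0.26 (adjusted p 0.0752 to 0.627). Without exoCDN2 tumor 2 Nfkbia was again the one kept (the others at -1.43 to -0.87, adjusted p 0.0739 to 0.234), and without exoCDN2 tumor 1 Nfkbiz was lost (-1.26, adjusted p = 0.0922). With the replicate block Nfkbiz was lost at an adjusted p of 0.0636, and in a fit of these 4 tumors alone none of the 10 was called, with these 5 at -4.37, -1.71, -1.58, -1.26 and -1.11 (adjusted p 0.137 to 0.22). Tnf differed by -0.97 (95% interval -2.17 to 0.24) and Ripk2 by -0.56 (-1.05 to -0.07), and neither was called. Without CDN2 tumor 1 they differed by -0.26 and -0.11.

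Markers of other cells also differed between groups, and not every list followed the order of the 10 genes. The leukocyte marker Ptprc lay at 5.17 to 11.8 CPM with 2 PBS doses, 76.3 to 111 with exoCDN2 and 43.7 to 46.1 with CDN2 at 20 µg. The 5 dendritic cell markers, summed, lay at 8.72 to 9.63, 6.54 to 6.88 and 5.31 to 9.31. The 6 neutrophil markers, summed, lay at 1.55 to 1.98 CPM with 2 PBS doses, 17.8 to 60.3 with exoCDN2 and 198 to 870 with CDN2, and the tumor at 870 was the one with 66890 counts of Nfkbia. Ly6g was at 0 in 1 of the 2 PBS tumors. The 6 monocyte and macrophage markers lay at 166 to 199 CPM with PBS, 453 to 669 with exoCDN2 and 399 to 862 with CDN2, and the 6 T and NK cell markers at 1.07 to 1.8, 22.4 to 29.9 and 5.66 to 8.86. Melanoma markers were lower, at 9340 to 9800 with exoCDN2 and 5540 to 8340 with CDN2 against 13900 to 15400 with PBS. After 1 dose neutrophil markers were at 4.48 to 4.73 with PBS (Ly6g at 0 in 1 tumor), 3.82 to 11.4 with unloaded EVs, 38.8 to 64 with exoCDN2, 13.5 to 31.5 with CDN2 at 20 µg and 14 to 17.1 at 100 µg. At 1 dose the monocyte and macrophage markers overlapped, at 201 to 269 with PBS, 212 to 235 with exoCDN2 and 188 to 301 with CDN2 at 20 µg. The 6 T and NK cell markers lay at 5.49 to 7.11 with PBS after 1 dose, 2.04 to 2.83 with exoCDN2, 3.74 to 7.26 with 20 µg and 1.2 to 1.31 with 100 µg, where Cd8a and Ncr1 were at 0 in 1 tumor. The 3 endothelial markers, all called lower with CDN2 at 20 µg than with PBS after 1 dose, lay at 26.4 to 27.3 against 73 to 75.4. Keratinocyte markers (3 genes) lay at 59 to 112 with PBS after 1 dose, 0.175 to 49.2 with unloaded EVs, 0.184 to 1.37 with exoCDN2, 0.914 to 5.48 with 20 µg (Krt10 at 0 in 1 tumor) and 1.76 to 5.19 with 100 µg. The 3 skeletal muscle markers lay at 1370 to 2920 after 2 doses of CDN2, against 126 to 232 with PBS and 126 to 127 with exoCDN2. The part of these cells in the levels of the 10 genes was not tested.

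**Figure D3:**
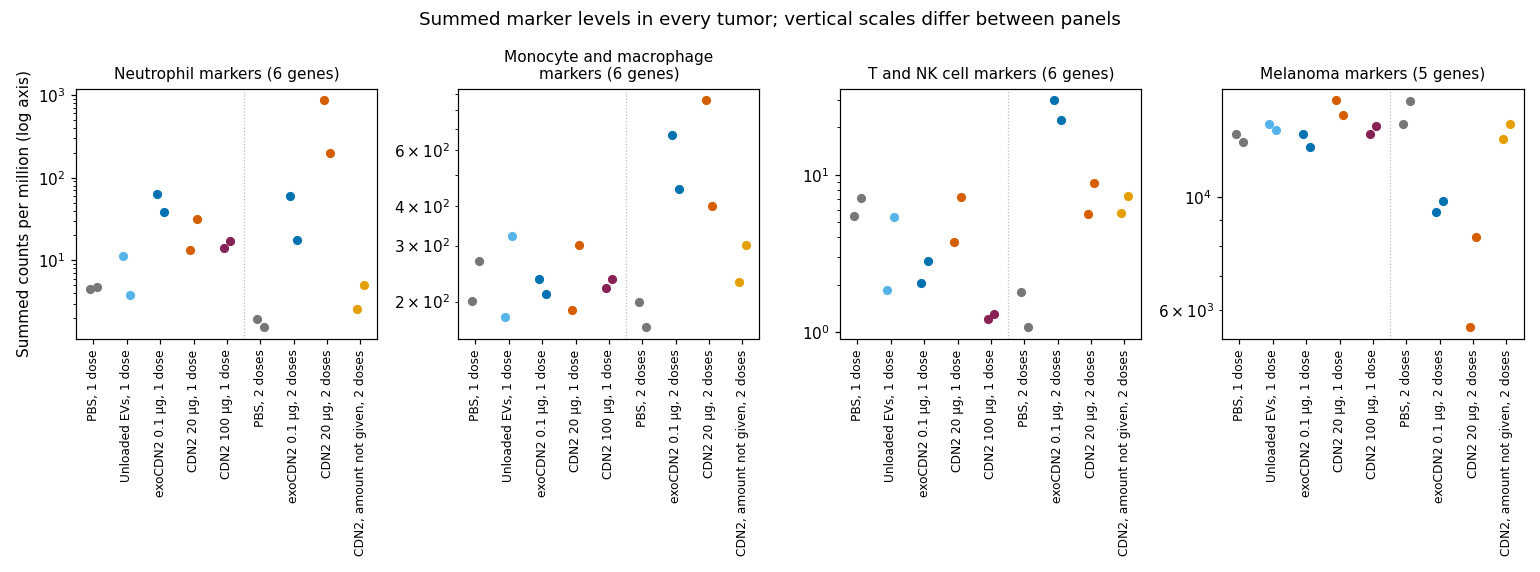
Summed CPM of marker genes in every tumor, on log axes, for neutrophils, monocytes and macrophages, T and NK cells and melanoma cells in 9 groups of 2 tumors. Neutrophil markers reach 198 and 870 CPM after 2 doses of CDN2 (20 µg), T and NK cell markers reach 22.4 and 29.9 after 2 doses of exoCDN2, and the melanoma markers are lowest in these groups.

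Tumors given 2 doses were also compared with those given 1. With exoCDN2, 7 of the 10 genes were lower after 2 doses than after 1 and none higher (7.44% of all genes): Tnf at a ratio of 0.169 (adjusted p = 0.0138), Ripk2 at 0.238 (adjusted p = 0.00156), Tnfaip3 at 0.241, Relb at 0.249, Birc3 at 0.317, Nfkb2 at 0.379 and Rel at 0.474. Nfkbia, at 0.319, did not pass (adjusted p = 0.109). With CDN2 at 20 µg, Ripk2 fell to 0.315 of its 1-dose level (adjusted p = 0.000791) and Nfkbia rose 4.43-fold (log2 2.15, adjusted p = 0.0215, or 2.90 without CDN2 2-dose tumor 2), and 8 of 10 were not called (20.8% of all genes). That rise in Nfkbia rested on CDN2 2-dose tumor 1: without it the log2 difference was 0.12 (adjusted p = 0.837), and without the 1-dose CDN2 tumor 1 it was 1.72 (adjusted p = 0.159). Between 1 and 2 doses of CDN2, Relb differed by 0.02 (95% interval -0.86 to 0.89) and Birc3 by 0.13 (-0.63 to 0.89) on the log2 scale. These values also depended on CDN2 2-dose tumor 1. Without it, the ratios of 2 doses of CDN2 to 1 were 0.227 for Ripk2, 0.255 for Tnf, 0.323 for Tnfaip3, 0.448 for Rel and 0.499 for Nfkb1. Relb stood at 0.56, Birc3 at 0.606, Nfkb2 at 0.643, Nfkbiz at 0.74 and Nfkbia at 1.08. These ratios rest on 1 tumor given 2 doses of CDN2. In that fit the lower levels of Ripk2 and Tnfaip3 were not limited to exoCDN2.

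The exoCDN2 calls between doses also depended on single tumors: 1 of 7 was kept without 1-dose tumor 1 (the lost ones at -2.56 to -1.04, adjusted p 0.0615 to 0.0853), 4 without 1-dose tumor 2 (-2.57 to -1.11, adjusted p 0.0517 to 0.0609), 3 without 2-dose tumor 1 (-2.97 to -1.14, adjusted p 0.0503 to 0.0781) and 4 without 2-dose tumor 2 (-2.24 to -1.42, adjusted p 0.0643 to 0.0822). Ripk2 kept its call each time. PBS tumors were compared in the same way, and none of the 10 was called (1.1% of all genes). Of the 186 genes called there, 178 were lower after 2 doses. Tnf alone had an unadjusted p under 0.05, at a ratio of 0.25 (95% interval of the log2 difference -3.47 to -0.53, adjusted p = 0.259), and DESeq2 called it (adjusted p = 0.0443). Keratinocyte markers (3 genes) summed to 59 to 112 CPM in the PBS tumors after 1 dose and 0.0438 to 0.408 after 2, with Krt5 and Krt14 at 0 in 1 of these, and their part was not tested.

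**Figure D4:**
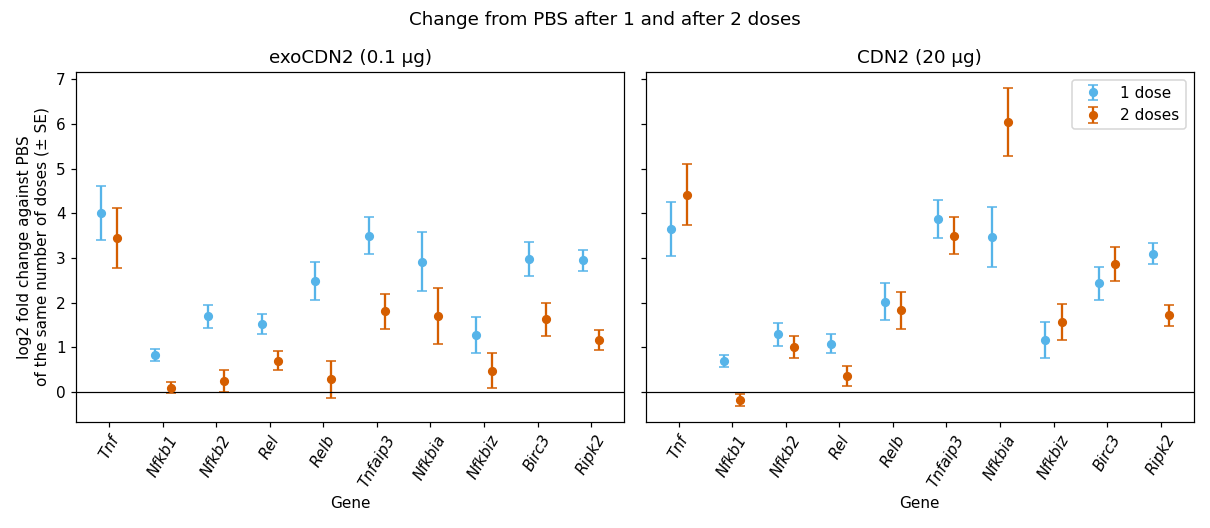
log2 fold change of each gene against PBS given the same number of doses, with its SE, after 1 dose (blue) and 2 doses (orange), for exoCDN2 on the left and CDN2 (20 µg) on the right, 2 tumors a group. With exoCDN2 all 10 orange points lie below the blue ones, and 3 of these differences were called. Of all genes tested, 51.3% had the higher value after 2 doses of exoCDN2. With CDN2, Nfkbia lies higher after 2 doses, at 6.05 against 3.47 (4.02 without CDN2 2-dose tumor 1). Tnf, Nfkbiz and Birc3 also lie higher there, and the other genes lie lower.

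Because the PBS tumors differed as well, the change from PBS after 2 doses was tested against the change after 1 dose (an interaction term). With exoCDN2 the difference was called for 3 of the 10 genes, all toward a smaller change (6.82% of all genes): Ripk2 (log2 -1.78 ± 0.32 SE, adjusted p = 0.00632), Nfkb2 (-1.45, adjusted p = 0.0291) and Relb (-2.21, adjusted p = 0.0367). For Tnf this difference was -0.56 (95% interval -2.49 to 1.37). With CDN2 at 20 µg 1 of 10 was called (16.8% of all genes), Ripk2 at -1.38 (adjusted p = 0.0126), and Nfkbia, at 2.58, was not (adjusted p = 0.0555, and 0.0377 by DESeq2). The Nfkbia value rested on CDN2 2-dose tumor 1: without it the difference was 0.54. In that fit Ripk2 stood at -1.86, Tnfaip3 at -1.28, Relb at -1.05, Nfkb1 at -1.03 and Rel at -0.92. Nfkb2 stood at -0.70, Nfkbiz at -0.46, Birc3 at -0.43 and Tnf at 0.02. With 1 of the 8 tumors of a test left out at a time, both Ripk2 calls were kept in every fit. Leaving out 1 tumor, Relb lost its call in 7 of 8 fits (-2.28 to -1.85 where lost, adjusted p 0.076 to 0.126) and was kept without exoCDN2 2-dose tumor 1. Nfkb2 lost its call in 6 of 8 (-1.55 to -1.19, adjusted p 0.0604 to 0.118) and was kept without that tumor or PBS 2-dose tumor 1. In fits of only the groups compared, the Ripk2 calls with CDN2 did not pass, at adjusted p of 0.0692 here and 0.0544 for 2 doses against 1.

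The other pathway genes after 2 doses are given by the same lists, beside the shares of all genes called in either direction. These were 30.6% for CDN2 against PBS, 11.3% for exoCDN2 against PBS and 19.4% for exoCDN2 against CDN2. Without CDN2 tumor 1 the share for CDN2 against PBS was 21.3% and that for exoCDN2 against CDN2 was 5.8%. Of 31 NF-κB inducible genes, 29 were called above PBS with CDN2 at 20 µg (median log2 5.32, or 27 and 4.18 without CDN2 tumor 1) and 21 with exoCDN2 (2.64). Between the agents, 24 were lower with exoCDN2 than with CDN2 (median -2.40), and without CDN2 tumor 1 this was 8 (-1.23). The smallest p-values there were those of Ier3 (ratio 0.225, adjusted p = 0.00166), Gadd45b (0.151, adjusted p = 0.00213) and the cytokine gene Il1a (0.0731, adjusted p = 0.00226), which without that tumor stood at 0.379, 0.312 and 0.165 and were still called. Of 26 receptor and proximal genes, 8 were called above PBS with CDN2 (median 0.32) and 9 with exoCDN2 (0.65). Of all 16927 genes, 3391 were called higher with CDN2 and 1501 with exoCDN2. Without CDN2 tumor 1 the CDN2 count was 7 higher and 1 lower (median 0.40). Tnfrsf1b, which encodes TNF receptor 2, was 20.4-fold above PBS with CDN2 (adjusted p = 0.000121), or 9.53-fold without CDN2 tumor 1, and 7.65-fold with exoCDN2 (adjusted p = 0.00223). Nod1, a receptor that signals through RIPK2, was 9.73-fold above PBS with exoCDN2 (adjusted p = 3.11e-05). Its level in the PBS tumors was itself lower after 2 doses than after 1, at a ratio of 0.248 (edgeR adjusted p = 0.00405). Of 16 other inhibitors, 8 were called above PBS with CDN2 (median 0.87, or 5 and 0.44 without CDN2 tumor 1) and 5 with exoCDN2 (0.65). Bcl3 stood at 12.8-fold with CDN2 (adjusted p = 7.03e-05), or 9.75-fold without that tumor, and at 6.61-fold with exoCDN2 (adjusted p = 0.000758). Nfkbie fell from 1 to 2 doses of exoCDN2 to a ratio of 0.199 (adjusted p = 0.00168). None of the 8 kinase and remaining subunit genes was called with either agent after 2 doses (medians -0.11 with CDN2 and 0.25 with exoCDN2).

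The 2 tumors given 2 doses of CDN2 of an amount not given in the labels are described apart. Tnf measured 58.9 and 41.8 normalized counts and Nfkbia 777 and 723. Tnfaip3 measured 432 and 306, Birc3 288 and 280 and Ripk2 598 and 457. None of the 10 was called against PBS after 2 doses by edgeR or DESeq2 (0.959% of 17110 genes), and Tnf alone had an unadjusted p under 0.05 (3.64-fold, adjusted p = 0.298). Of the 31 NF-κB inducible genes, Irf1 (6.99-fold, adjusted p = 0.000256), Cxcl10 (7.3-fold, adjusted p = 0.00111) and Ccl5 (6.34-fold, adjusted p = 0.0019) were called higher than PBS in this pair. These ratios are to the PBS tumors given 2 doses. Irf1 and Cxcl10 were themselves lower in those tumors than in the PBS tumors given 1 dose. Neutrophil markers in this pair summed to 2.59 and 5.06 CPM, with Ly6g at 0 in both.

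Across the 9 group means of log2 CPM, the genes most like Tnf were Cmpk2 (Pearson r = 0.991), Cxcl10 (0.989), Cd69 (0.988), Ccdc25 (0.987) and Csf1 (0.987), out of 17100 genes compared. Among the 10 genes, Birc3 (0.965), Tnfaip3 (0.964) and Ripk2 (0.958) were the most like Tnf. The genes most like Nfkbia were 1700019L13Rik (0.99), Gm44851 (0.989), Rbms2 (0.986), Stk40 (0.984) and Gadd45g (0.977), and Nfkbiz (0.936) and Birc3 (0.91) were nearest among the 10. These are descriptions over 9 means that share libraries and scaling. Without the group given 2 doses of CDN2 (20 µg), an alternative chosen after seeing the data, over 8 means the 5 genes named for Nfkbia kept r of 0.97 to 0.989, while Nfkbia and Tnf went from 0.832 to 0.961, and Tnfaip3 (0.994) and Ripk2 (0.983) became the nearest to Nfkbia among the 10.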

How the data were processed

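RNA of 18 whole tumors was sequenced as paired 150-base reads. The deposited values are RSEM expected counts per Ensembl gene, one value per tumor: the authors filtered reads on quality, aligned them with OSA to GRCm38 (mm10 in the submitters' processing notes) in OmicSoft ArraySuite 10.1 and counted on Ensembl release 88. Strandedness was not given in the sources used here. Symbols and exon lengths came from GENCODE M21 (50376 of 50600 rows matched).

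Expected counts were rounded to whole numbers. Genes with low counts were filtered (edgeR filterByExpr, minimum count 10, total 15), leaving 16927. Counts were scaled by TMM and tested with the quasi-likelihood test of edgeR 4.0.16 in R 4.3.3 across 16 tumors in 8 groups (8 residual degrees of freedom), with Benjamini-Hochberg adjustment over all genes tested. The 2 tumors of unlabelled amount entered only a fit of all 18 tumors (17110 genes). Following the study, a call needed adjusted p under 0.05 and a ratio over 2. Normalized counts used DESeq2 1.42.0 size factors. An exact permutation test of 2 tumors against 2 cannot give a two-sided p below 0.333. Intervals are 95% intervals of the fitted log2 difference, at a common biological coefficient of variation of 0.22. The fit was tested on simulated data with the depths of exoCDN2 against PBS, 2 doses: 198 of 200 genes changed 4-fold were recovered, and 15 unchanged genes were called, in a step run on 12999 genes. Every simulated gene had the same coefficient of variation, 0.22, and no simulated tumor stood apart from its partner. The recovery therefore does not cover genes or tumors more variable than that.

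The 10 genes, the lists and the named genes (in each list at most 3 per direction and comparison, by smallest p, and for likeness the 5 highest correlations) were chosen with earlier results of these data known. DESeq2, RLE scaling, no filter, only the groups compared, no ratio limit, a replicate block, pooled PBS tumors and leaving out each tumor were tried as alternatives. Columns of other samples left out numbered 0.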

Additional observations from a re-analysis of the deposited data

Results flagged for a closer look

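For 4 results the change from PBS after 2 doses differed from the change from PBS after 1 dose by the edgeR interaction test, with 2 tumors a group. For Ripk2 the difference was -1.38 on the log2 scale with CDN2 at 20 µg and -1.78 with exoCDN2. For Nfkb2 with exoCDN2 it was -1.45, and for Relb with exoCDN2 it was -2.21. In each case the change from PBS was smaller after 2 doses. No group had the 4 or more tumors that a search for outlying tumors needs.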

How the results depend on the processing

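Of 59 called differences (a gene in a comparison), 59 were kept with DESeq2, 59 with RLE scaling, 59 with all 18 tumors, 58 without the filter, 49 with only the groups compared and 34 of 34 with the 4 PBS tumors pooled, and none reversed. Of the 10 genes, CDN2 at 100 µg against 20 µg had 1 called lower with DESeq2, 1 without the filter and 1 with only the groups compared, against 0 in the main test. PBS after 2 doses against 1 had 1 with DESeq2 and 1 without the filter, against 0, and CDN2 of unlabelled amount had 1 without the filter, against 0. ExoCDN2 against CDN2 after 2 doses had 0 with only the groups compared, against 5. CDN2 after 2 doses against 1 had 4 without the filter, 4 without the ratio limit and 0 with only the groups compared, against 2. The CDN2 interaction had 2 with DESeq2, 2 without the filter, 2 without the ratio limit, 2 with all 18 tumors and 0 with only the groups compared, against 1, and the exoCDN2 interaction had 6 without the filter and 5 with only the groups compared, against 3. The cause was not tested, beyond fewer tumors or more genes entering those fits. Leaving out 1 tumor at a time, the 10 genes called ranged from 2 to 8 for CDN2 at 20 µg, 2 to 3 for 100 µg and 3 to 7 for exoCDN2 against PBS after 1 dose, and from 4 to 8 for exoCDN2 against unloaded EVs. After 2 doses they ranged from 5 to 8 for CDN2 and 0 to 5 for exoCDN2 against PBS and from 1 to 6 for exoCDN2 against CDN2. For 2 doses against 1 they ranged from 2 to 5 with CDN2 and 1 to 4 with exoCDN2, and for each interaction from 1 to 3. Deviations of same-numbered tumors from their group means had a mean r of 0.0136 over 36 pairs of groups (-0.184 to 0.319). The highest r was between exoCDN2 and CDN2 (20 µg), both after 2 doses. This mean cannot exclude a shared deviation within part of the design, and the main test took the numbers only as names of tumors. The replicate block kept 57 of 59 calls, losing Nfkb2 for CDN2 against PBS after 2 doses (0.97) and Nfkbiz for exoCDN2 against CDN2 after 2 doses (-1.07). The numbers of the 2-dose CDN2 tumors were also crossed, a pairing chosen after seeing the data, and 15 of 16 calls were kept. Depth limits Tnf most, at 12 and 19 counts in the PBS tumors after 2 doses.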
